A study of Mus musculus with 2 samples.

Results

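Transcripts of 10 genes of interleukin-1 (IL-1) and tumor necrosis factor (TNF) signalling were counted in nuclei of injured mouse tibias: Il1a, Il1b, Il1r1, Il1r2, Il1rn, Il1rap, Tnf, Tnfrsf1a, Tnfrsf1b and Nfkbiz. They were taken by symbol from the 32285 genes counted, and all 10 had transcripts in both libraries. The questions were which populations held the ligands, which held the receptors, and which of these transcripts stood above the RNA floating free in the droplets. The day 1 post-fracture library came from periosteum and hematoma after an open, non-stabilized tibial fracture, in which the bone was cut at mid-shaft. The day 5 post-MTI library came from the activated periosteum and callus after musculoskeletal traumatic injury (MTI), which adds mechanical injury of the muscles around the tibia to a fracture. All mice were C57BL6, 10 to 14 weeks old, with males and females mixed, and each library was made once from nuclei pooled from 3 or 4 mice. With 1 library for each condition no test was possible, and since day and injury differ together they cannot be told apart, so both libraries are described side by side and never compared.

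IL-1α and IL-1β are alarm cytokines that bind the receptor IL1R1, which signals only together with its partner chain IL1RAP. The system carries its own brakes: IL1R2 binds the ligand but has no signalling tail, and the antagonist encoded by Il1rn occupies IL1R1 without activating it. TNF acts through TNFR1 (Tnfrsf1a), found on most cells, and TNFR2 (Tnfrsf1b), best known from leukocytes. Both pathways converge on NF-κB, and Nfkbiz, which encodes the nuclear protein IκBζ, is a classic early target of IL-1. Inflammation of this kind is the first phase of bone repair.

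RNA molecules were counted by their unique molecular identifiers (UMIs), and each sum over a population is given per 1000000 UMIs of the same population (CPM), with 95% Poisson intervals in parentheses. Ratios of CPM have 95% conditional binomial intervals and shares have 95% Clopper-Pearson intervals, and all of them cover counting error only. A gene was called higher or lower when its ratio was at least 2-fold with an interval that did not include 1, among genes with at least 20 UMIs over both populations. The MTI library held 1446 barcodes with 500 to 45740 UMIs (median 2245.5), of which 1127 nuclei passed the filters. The day 1 library held 48987 barcodes with 72 to 8338 UMIs, a median of only 157. They shared 33 barcodes. Populations are called X-like from fixed marker genes, after clustering from which the 10 genes and their pathway were left out.

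After MTI the retained nuclei comprised 472 immune-like, 176 skeletal lineage-like, 98 myogenic-like, 36 endothelial-like, 33 erythroid-like and 30 osteoclast-like nuclei, and 282 stayed unnamed. The immune-like nuclei divided into 281 macrophage-like, 83 neutrophil-like and 60 monocyte-like nuclei and 48 without a name. Neutrophil-like nuclei had all 10 neutrophil markers at a summed level of 9498 CPM, against 167 CPM in the other nuclei. They also had 1765 CPM of skeletal lineage markers and 1736 CPM of myogenic markers. In macrophage-like nuclei these were 361 and 167 CPM. The part of free RNA or mixed droplets in these levels was not tested. The name monocyte-like rested on 3 markers that were higher than in other nuclei. Of its 6 markers 4 were detected, with Ly6c2 and Chil3 at 0. The same cluster also had enough macrophage markers for that name, and Arg1 was among its leading genes. Skeletal lineage-like nuclei had all 22 of their markers.

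The windows around the transcription start sites of the genes whose levels divided the populations are shown next, so that the genes that peaked together in neutrophil-like nuclei (Il1b, Il1r2 and Il1rap) can be set beside the receptor gene of the skeletal lineage (Il1r1, with 2 annotated starts). RefSeq windows of build GRCm38.p6, with 250 bases before and 50 after the start, were found for 9 of the 10 genes, 12 windows in all. Each is written 5′ to 3′ on the strand of the gene, and capitals mark matches on either strand to an NF-κB consensus, TTGCNNAA (C/EBP type), TGANTCA (AP-1 type) or TATAAA (core promoter box, added after the sequences had been seen), which did not overlap one another.
Il1b, chr2:129371090-129371389, minus strand: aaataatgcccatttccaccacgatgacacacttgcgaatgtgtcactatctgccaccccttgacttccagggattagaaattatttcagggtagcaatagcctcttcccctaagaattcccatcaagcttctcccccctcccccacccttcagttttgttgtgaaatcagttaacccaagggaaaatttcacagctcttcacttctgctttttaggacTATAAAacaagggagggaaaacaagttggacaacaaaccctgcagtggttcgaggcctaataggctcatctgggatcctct
Il1r2, chr1:40085843-40086142, plus strand: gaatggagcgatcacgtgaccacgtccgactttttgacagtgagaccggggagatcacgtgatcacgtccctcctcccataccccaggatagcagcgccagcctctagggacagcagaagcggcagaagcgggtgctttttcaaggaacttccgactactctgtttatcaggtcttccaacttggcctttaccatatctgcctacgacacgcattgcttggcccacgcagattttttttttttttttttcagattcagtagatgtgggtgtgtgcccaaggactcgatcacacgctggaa
Il1rap, chr16:26581455-26581754, plus strand: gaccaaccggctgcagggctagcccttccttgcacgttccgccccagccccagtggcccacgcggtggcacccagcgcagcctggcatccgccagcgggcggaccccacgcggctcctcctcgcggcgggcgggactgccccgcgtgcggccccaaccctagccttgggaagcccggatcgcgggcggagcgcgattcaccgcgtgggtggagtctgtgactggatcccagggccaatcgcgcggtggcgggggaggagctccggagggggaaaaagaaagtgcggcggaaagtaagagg
Il1r1, first start, chr1:40224830-40225129, plus strand: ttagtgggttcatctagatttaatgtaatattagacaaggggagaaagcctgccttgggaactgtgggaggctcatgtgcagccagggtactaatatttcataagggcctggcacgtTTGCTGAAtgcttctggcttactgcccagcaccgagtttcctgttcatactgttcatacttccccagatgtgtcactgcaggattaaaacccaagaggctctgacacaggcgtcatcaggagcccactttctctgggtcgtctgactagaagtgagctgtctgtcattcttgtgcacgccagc
Il1r1, other start, chr1:40266336-40266635, plus strand: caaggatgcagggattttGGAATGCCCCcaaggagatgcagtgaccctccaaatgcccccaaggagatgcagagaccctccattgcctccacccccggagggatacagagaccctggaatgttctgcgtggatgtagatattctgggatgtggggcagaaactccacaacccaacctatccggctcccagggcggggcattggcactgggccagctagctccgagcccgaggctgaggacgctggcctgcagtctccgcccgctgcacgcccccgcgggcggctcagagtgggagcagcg

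TATAAA stood 31 to 26 bases before the start of Il1b, 32 to 27 bases before that of Il1a and 29 to 24 bases before that of Tnf, so the 3 ligand genes held these letters at nearly the same distance. Il1r2 and Il1rap, whose RNA was highest in the same nuclei as that of Il1b, held none of the 4 motifs in their windows. The NF-κB consensus occurred only at the other start of Il1r1, and the C/EBP type motif only at its first start. Among 32851 windows of all genes, 8.46% held the NF-κB consensus, 10.8% TTGCNNAA, 7.81% TGANTCA and 13.6% TATAAA. These matches are letters in a window, and no binding was measured.

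Il1b (chr2:129364570-129371139, minus strand), the gene for IL-1β, was concentrated in neutrophil-like nuclei at day 5 post-MTI. These 83 nuclei held 204 of the 399 Il1b UMIs of the retained nuclei, which gave 2976 CPM (2582 to 3414). Monocyte-like nuclei had 252 CPM (187 to 333), macrophage-like nuclei 22.4 CPM (14.9 to 32.3), and skeletal lineage-like nuclei 14.6 CPM (8.18 to 24.1). The neutrophil-like level was 133-fold that of macrophage-like nuclei (89.3 to 205). Myogenic-like nuclei had 23.0 CPM, from 16 UMIs in 5 nuclei, and the ratio of macrophage-like to myogenic-like nuclei was 0.975 (0.509 to 1.93).

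**Figure D1:**
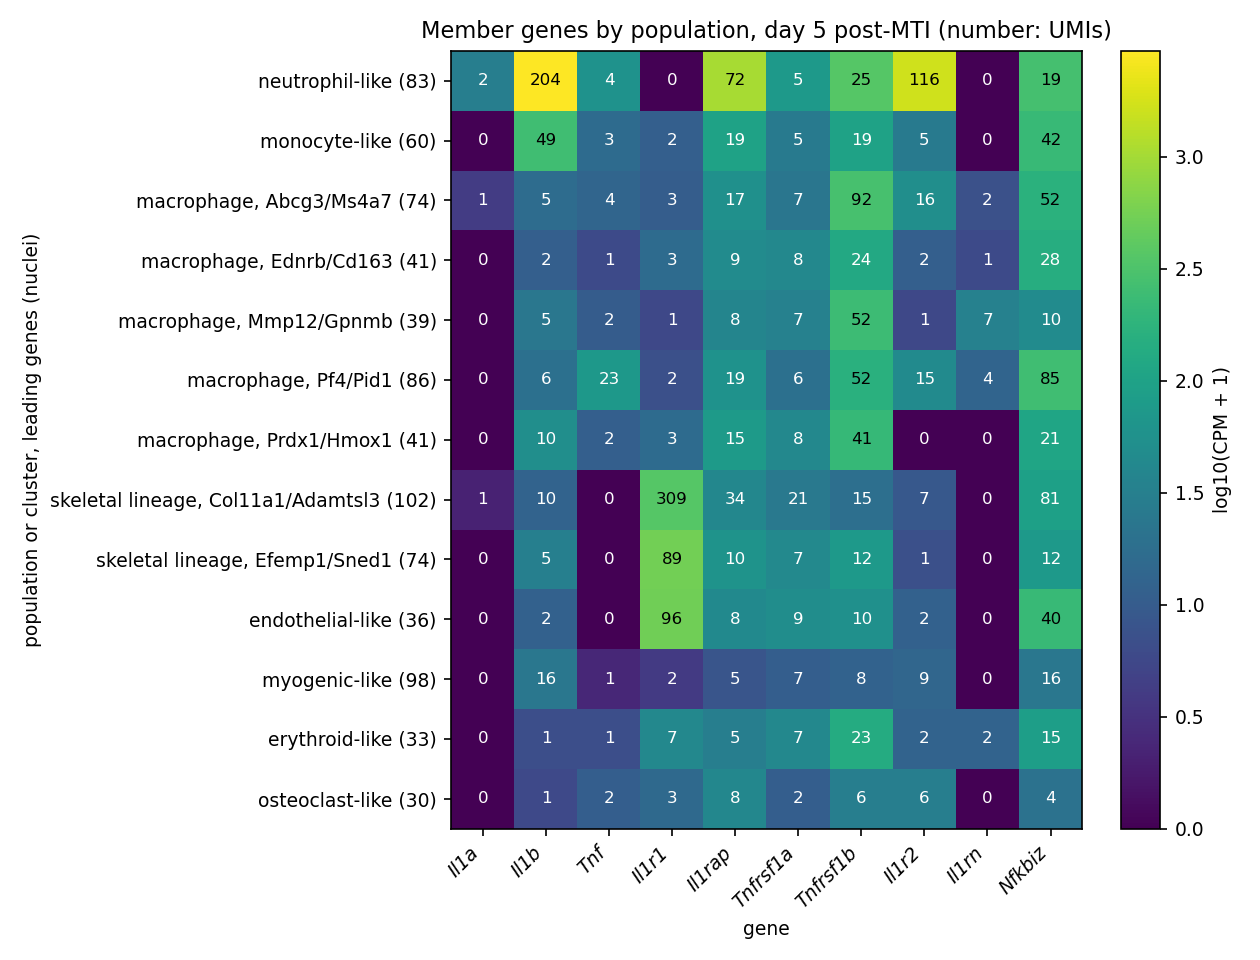
Rows are the named populations of the day 5 post-MTI library and their clusters, with their number of nuclei, columns are the 10 genes, colour is log10(CPM + 1) and the number in each cell is the UMI sum. Il1b (204 UMIs), Il1r2 (116) and Il1rap (72) peak in the neutrophil-like row, and Il1r1 in the rows of both skeletal lineage clusters (309 and 89) and of the endothelial-like nuclei (96).

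Within the neutrophil-like nuclei Il1b was uneven. Of the 83 nuclei, 39 had no Il1b UMI, 13 had 1, 3 had 2 and 28 had 3 or more, with a maximum of 15. After each nucleus was thinned to 500 UMIs, to set depth equal, 49.4% of them (38.2 to 60.6%) had an Il1b UMI, against 53.0% before thinning. The thinned share was 1.07% (0.221 to 3.09%) in macrophage-like nuclei and 2.04% (0.248 to 7.18%) in myogenic-like nuclei. No nucleus was left out by thinning, and the median depths were 737 UMIs in neutrophil-like, 4037 in macrophage-like and 5715.5 in myogenic-like nuclei.

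Outside the neutrophil-like nuclei, the nuclei with Il1b had a higher summed level of neutrophil markers than those without it in each of the 5 populations examined, though not every such nucleus had one. In myogenic-like nuclei, the 5 nuclei with Il1b had 305 CPM of neutrophil markers and the other 93 had 38.6 CPM. The 6 skeletal lineage-like nuclei with Il1b had 392 CPM, and the other 170 had 53.4 CPM. In macrophage-like nuclei these values were 627 CPM in 14 nuclei with Il1b and 196 CPM in 267 without it. They were 259 CPM in 9 and 109 CPM in 51 monocyte-like nuclei, and 309 CPM in 2 and 30.3 CPM in 34 endothelial-like nuclei. The number of Il1b UMIs per Il1r2 UMI was 1.76 in neutrophil-like nuclei (204 and 116 UMIs). It varied elsewhere, on far fewer UMIs, from 0.167 in osteoclast-like nuclei (1 and 6) and 0.824 in macrophage-like nuclei (28 and 34) to 1.78 in myogenic-like nuclei (16 and 9), 1.88 in skeletal lineage-like nuclei (15 and 8) and 9.80 in monocyte-like nuclei (49 and 5). The part of free neutrophil RNA or of mixed droplets in the low Il1b levels was not tested.

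In monocyte-like nuclei a single nucleus of 2771 UMIs held 29 of the 49 Il1b UMIs, with no neutrophil marker. Without it the level was 104 CPM in place of 252 CPM. Il1b was also seen in a low-depth cluster without a name, led by Hspa1a and Ciita, at 367 CPM (26 UMIs in 73 nuclei). The 48 immune-like nuclei without a name, led by Pax5 and Ikzf3, had 15 Il1b and 17 Il1r2 UMIs among 106429 UMIs. Per UMI counted, both levels were above those of macrophage-like nuclei. These UMIs are part of the immune-like sums. Il1a, the gene for IL-1α, had 5 UMIs in the whole retained library, 2 of them in neutrophil-like nuclei, too few for a call. The ratio of neutrophil-like to macrophage-like nuclei was 36.5 (1.90 to 2154), from 2 UMIs against 1.

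Tnf (chr17:35199381-35202007, minus strand) was a gene of immune-like nuclei, with 41 of its 46 UMIs there. Skeletal lineage-like and endothelial-like nuclei had 0 Tnf UMIs, which allows up to 2.92 and 16.6 CPM. Against this limit of 3 counts for the group, immune-like nuclei, at 25.3 CPM (18.2 to 34.3), were 8.66-fold higher than skeletal lineage-like nuclei. The lower bound of the ratio's interval was 6.73. Of the 41 UMIs, 15 lay in 1 macrophage-like nucleus, so both values rest in part on it, and the interval does not cover spread between nuclei. Of the 281 macrophage-like nuclei 268 had no Tnf UMI, 9 had 1, 2 had 2 and 2 had 4 or more. Neutrophil-like nuclei had 4 Tnf UMIs (58.4 CPM, 15.9 to 149), and their ratio to macrophage-like nuclei was 2.28 (0.586 to 6.43), which includes no difference.

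The Tnf signal of macrophage-like nuclei rested largely on a single nucleus of the cluster led by Pf4 and Pid1. It held 15 of the 32 Tnf UMIs and also 35 of the 196 Nfkbiz UMIs of these nuclei, within 9413 UMIs in all, and no neutrophil marker. Some other genes that NF-κB is known to induce were also counted in it, named here after their values were seen. It had 11 UMIs of Tnfaip3, which encodes the feedback inhibitor A20, against 13 in all the other nuclei of the cluster, and 10 UMIs of the neutrophil chemokine gene Cxcl2 against 5. Relb and Sod2 had 4 UMIs each (425 CPM, against 59.4 and 34.4 CPM in the other nuclei). Nfkb1 had 3 UMIs (319 CPM against 394 CPM). The inhibitor gene Nfkbia and the monocyte chemokine genes Ccl2 and Ccl7 had 0 UMIs in this nucleus. In the other nuclei they stood at 144, 103 and 93.7 CPM. At the depth of 1 nucleus 0 UMIs allow up to 319 CPM, so no lower level can be read from these 3 genes. With this nucleus, the Pf4 and Pid1 cluster had 7.15 times the Tnf level of the other macrophage-like nuclei (3.19 to 17.6). Without it the ratio was 2.56 (0.859 to 7.47), and the Nfkbiz ratio was 1.30 (0.910 to 1.83), so neither difference remained outside its interval.

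**Figure D2:**
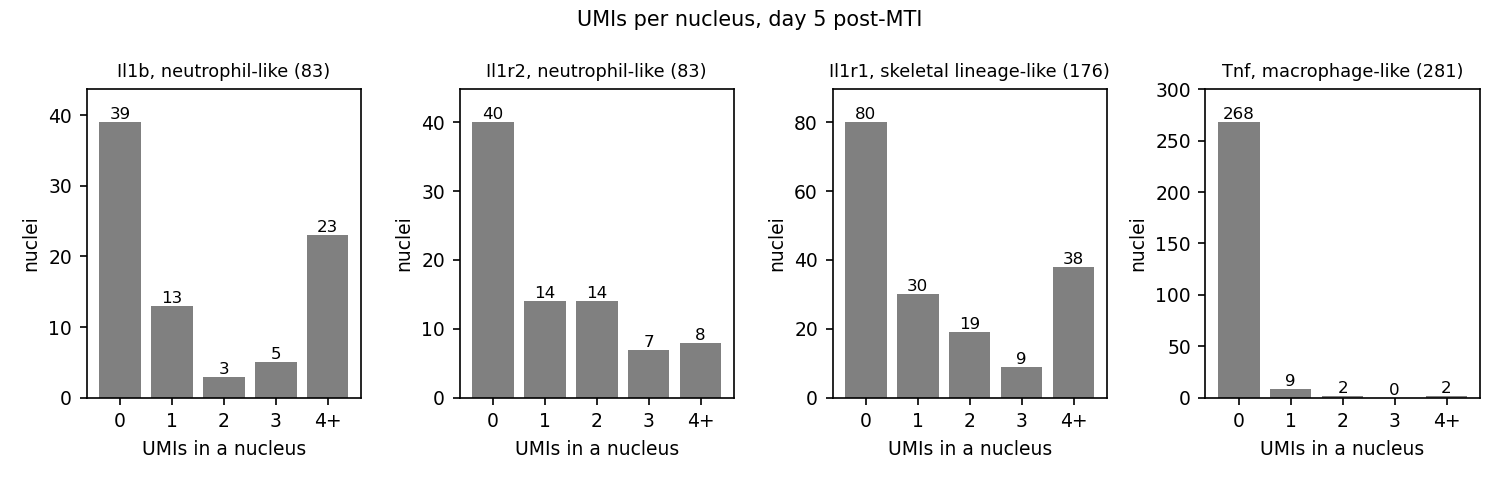
Bars give the number of nuclei (vertical axis, from 0) with 0, 1, 2, 3 and 4 or more UMIs of a gene at day 5 post-MTI, with the number of nuclei of the population in the panel title. Il1b in neutrophil-like and Il1r1 in skeletal lineage-like nuclei have many nuclei at 4 or more UMIs (23 and 38), while Tnf in macrophage-like nuclei has 268 of 281 nuclei at 0.

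The signalling receptor gene Il1r1 (chr1:40225080-40317257, plus strand) lay on the other side. Skeletal lineage-like nuclei held 398 of its 542 UMIs (388 CPM, 351 to 428), and endothelial-like nuclei 96 (530.3 CPM, 430 to 648). Immune-like nuclei had 14 UMIs (8.64 CPM, 4.72 to 14.5), a level 44.9-fold lower than in skeletal lineage-like nuclei (26.4 to 82.8), and neutrophil-like nuclei had 0, which allows up to 43.8 CPM. Among the skeletal lineage-like nuclei, 96 of 176 had an Il1r1 UMI, and the most in any was 18. The share after thinning was 18.2% (12.8 to 24.7%), against 0.712% (0.0863 to 2.55%) in macrophage-like and 0 of 98 in myogenic-like nuclei, which allows a share of nuclei with a UMI at this depth of up to 3.69% by the Clopper-Pearson interval. Without thinning 2 of the 98 had an Il1r1 UMI.

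Both skeletal lineage clusters carried Il1r1. The cluster led by Efemp1 and Sned1 (74 nuclei) had 539 CPM and the deeper cluster led by Col11a1 and Adamtsl3 (102 nuclei) had 359 CPM, a ratio of 1.502 (1.17 to 1.91). Endothelial-like nuclei were 1.37-fold above all skeletal lineage-like nuclei (1.08 to 1.71), but 37 of their 96 UMIs lay in a single nucleus, and without it they had 349 CPM. The unnamed cluster led by Pax7 and Pde1c had 14 Il1r1 UMIs, of which 11 came from 1 nucleus.

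Il1rap (chr16:26581704-26730117, plus strand), the partner chain, was highest where Il1r1 was not found. Neutrophil-like nuclei had 72 UMIs in 30 nuclei (1050.5 CPM, 822 to 1323), 19.3-fold the macrophage-like level of 54.4 CPM (13.7 to 27.3). Skeletal lineage-like nuclei had 42.9 CPM (31.1 to 57.5) and endothelial-like nuclei 44.2 CPM (19.1 to 87.1), neither apart from macrophage-like nuclei within counting error, while myogenic-like nuclei had 7.18 CPM. Of the 96 skeletal lineage-like nuclei with Il1r1, 19 also had an Il1rap UMI, and 7 of the 80 without Il1r1 did. These nuclei differ in depth, which raises both counts together, and that was not corrected for.

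Il1r2 (chr1:40074079-40125231, plus strand), the decoy receptor, was highest in the same nuclei as Il1b. Monocyte-like nuclei had 49 Il1b and 5 Il1r2 UMIs, but 29 of these Il1b UMIs lay in 1 nucleus with 0 Il1r2 UMIs, and 20 remain without it. Neutrophil-like nuclei had 116 UMIs in 43 nuclei (1692 CPM, 1398 to 2030), 62.3-fold the macrophage-like level of 27.2 CPM (42.2 to 94.2). After thinning, 44.6% of the neutrophil-like nuclei (33.7 to 55.9%) had an Il1r2 UMI, against 1.78% of macrophage-like and 1.02% of myogenic-like nuclei. Ligand and decoy lay in the same nuclei in part: 31 of the 83 had both, 13 only Il1b, 12 only Il1r2 and 27 neither. The antagonist gene Il1rn (chr2:24336853-24351494, plus strand) had 14 of its 18 UMIs in macrophage-like nuclei (11.2 CPM), 7 of them in the 39 nuclei led by Mmp12 and Gpnmb. Neutrophil-like nuclei had 0 Il1rn UMIs, but their ratio to macrophage-like nuclei has an upper bound of 5.50. Whether Il1rn was separate from Il1b and Il1r2 can therefore not be read at this depth. These counts are small, and in skeletal lineage-like nuclei, at 0, up to 2.92 CPM could have been missed.

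**Figure D3:**
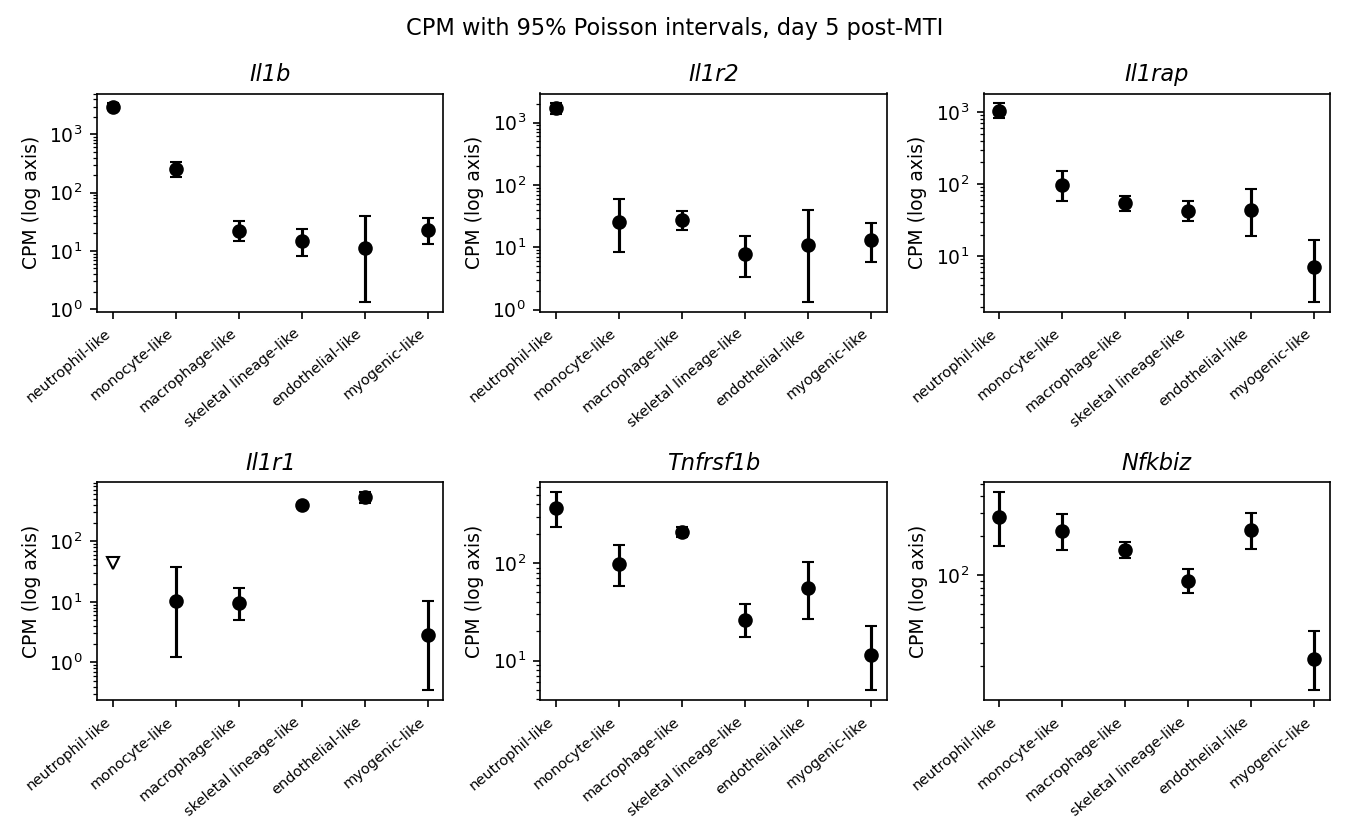
Points are CPM on a log axis with 95% Poisson intervals for 6 genes in 6 populations of the day 5 post-MTI library, and the open triangle is the level that 0 UMIs allow. Il1b, Il1r2 and Il1rap are highest in neutrophil-like nuclei (2976, 1692 and 1050.5 CPM), Il1r1 in skeletal lineage-like and endothelial-like nuclei (388 and 530.3 CPM), and Nfkbiz differs less between populations.

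Of the TNF receptors, Tnfrsf1b (chr4:145213463-145246870, minus strand) was a gene of immune-like nuclei and Tnfrsf1a (chr6:125349362-125362484, plus strand) was not. Tnfrsf1b had 315 of its 411 UMIs in immune-like nuclei (194 CPM, 174 to 217), 7.39-fold the skeletal lineage-like level of 26.3 CPM (4.98 to 11.4). It was broad among macrophage-like nuclei, with a UMI in 147 of 281 and at most 6 in any. Tnfrsf1a stood at 29.0 CPM in immune-like nuclei (21.3 to 38.6) and at 27.3 CPM in skeletal lineage-like nuclei (18.1 to 39.4), a ratio of 1.06 (0.652 to 1.76). Within the skeletal lineage, Tnfrsf1b was 4.17-fold higher in the Efemp1 and Sned1 cluster than in the Col11a1 and Adamtsl3 cluster (1.78 to 9.55), from 12 and 15 UMIs.

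The comparison of neutrophil-like with macrophage-like nuclei turned for Tnfrsf1b with the scale. In CPM it was 365 CPM (236 to 538) against 209 CPM (184 to 236), a ratio of 1.75 (1.11 to 2.64). Per nucleus it was 0.301 UMIs against 0.929 UMIs, because neutrophil-like nuclei held fewer UMIs in all. Nfkbiz turned likewise, with a CPM ratio of 1.77 (1.04 to 2.84) but 0.229 UMIs against 0.698 UMIs per nucleus. For Il1b both scales pointed the same way, at 2.46 UMIs per neutrophil-like and 0.0996 UMIs per macrophage-like nucleus.

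Nfkbiz (chr16:55811375-55838899, minus strand), the target gene, was detected on both the ligand and the receptor side. Its level was 277 CPM (167 to 433) in neutrophil-like, 221 CPM (158 to 301) in endothelial-like, 216 CPM (156 to 292) in monocyte-like, 157 CPM (136 to 180) in macrophage-like and 90.6 CPM (73.1 to 111) in skeletal lineage-like nuclei. The intervals of the first 3 of these overlapped one another and that of macrophage-like nuclei. The macrophage-like level includes the nucleus that held 35 of its 196 UMIs, without which 161 remain, so that overlap rests in part on 1 nucleus. The ratio of neutrophil-like to macrophage-like nuclei was 1.77 (1.04 to 2.84). Myogenic-like nuclei, at 23.0 CPM (13.1 to 37.3), lay below all 5 populations. Endothelial-like nuclei had 2.44 times the skeletal lineage-like level (1.64 to 3.57), with 9 of their 40 Nfkbiz UMIs in 1 nucleus. In the skeletal lineage, 40 of the 96 nuclei with Il1r1 and 15 of the 80 without it had an Nfkbiz UMI, again with depth not corrected for. Among macrophage-like nuclei the cluster led by Mmp12 and Gpnmb was low, at 46.0 CPM.

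Counted over the list, 5 of the 8 genes with enough UMIs were called higher in immune-like than in skeletal lineage-like nuclei (Il1b, Il1r2, Il1rap, Tnf and Tnfrsf1b), where 19.8% of all 10441 genes tested were called higher. Il1r1 alone was called lower, where 22.1% of all genes were. The Il1b and Il1r2 ratios were 12.5 (7.46 to 22.6) and 13.6 (6.76 to 32.1). Without the neutrophil-like nuclei, a check added after the data were seen, they were 4.06 and 4.63, and the Il1rap ratio went from 2.40 to 1.43 and lost its call. Between neutrophil-like and macrophage-like nuclei 3 of the 7 genes with enough UMIs were called higher (Il1b, Il1r2 and Il1rap), where 9.66% of 7227 genes were.

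To set levels beside each other between genes they were divided by length, here as CPM per kilobase of the gene from first to last base. That counts of nuclear RNA scale with this length was not tested, and CPM alone gives another order. In neutrophil-like nuclei Il1b stood at 453 CPM per kilobase, Il1r2 at 33.1, Tnf (from 4 UMIs) at 22.2, Tnfrsf1b at 10.9, Nfkbiz at 10.1 and Il1rap at 7.08. In skeletal lineage-like nuclei Il1r1 had the highest level of the 10 genes, 4.21 CPM per kilobase, with Nfkbiz at 3.29. Genes whose profile over 17 populations was most like that of a member, by Pearson's r of log2(CPM + 10) among 6867 genes, were Trim30b for Il1b (r = 0.905), Mirt1 for Il1r2 (0.923), Csf3r for Il1rap (0.893), Nid1 for Il1r1 (0.936), Ptafr for Tnfrsf1b (0.922), Stk10 for Nfkbiz (0.838) and Gda for Tnfrsf1a (0.753). Il1b and Il1rap were each among the 5 genes most like the other (0.885). All points come from 1 library, and these populations were themselves defined by clustering.

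The rest of the pathway was taken from lists of pathway genes, chosen with earlier results of these data known. Of the IL-1 family and inflammasome genes, 7 of 8 tested were called higher in immune-like than in skeletal lineage-like nuclei and 1 lower, where 19.8% of all genes were called higher and 22.1% lower. They included the inflammasome sensor gene Nlrp3 (28.8-fold, 7.75 to 242), Casp1 (12.5-fold, 4.06 to 62.1), whose protease matures IL-1β, the IL-18 receptor chain gene Il18rap (5.97-fold), Il18 (3.44-fold) and the pore-forming Gsdmd (3.17-fold). The alarmin gene Il33 went the other way, with 3 UMIs against 51 and a level 26.8-fold lower in immune-like nuclei (8.68-fold at the near bound). The median log2 ratio of this list was 2.58, against 0.03 over all genes tested.

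Of the adaptors and kinases 7 of 20 tested were called higher in immune-like nuclei and 0 lower, beside the same 19.8% and 22.1% of all genes, with a median log2 ratio of 0.82. The most abundant were Adam17 (4.02-fold), whose product sheds TNF and its receptors, Birc3 (5.10-fold), Irak2 (5.31-fold), Ikbkb (2.84-fold), Irak4 (2.90-fold) and Ikbkg (2.79-fold). Of the NF-κB subunits and inhibitors 9 of 12 were called higher and 0 lower, with a median log2 ratio of 1.496, among them Rel (6.89-fold), Nfkbia (7.60-fold), Relb (3.09-fold), Tnip1 (2.43-fold), Zc3h12a (2.57-fold) and Tnfaip3 (6.88-fold). Of the induced targets 4 of 11 were called higher (Cxcl2, Icam1, Ccl2 and Ccl7) and 2 lower, the latter near the share of all genes, with a median log2 ratio of 0.93. The 2 lower genes were the prostaglandin synthase gene Ptgs2, at 14.8 CPM in immune-like and 110.1 CPM in skeletal lineage-like nuclei, and the neutrophil chemokine gene Cxcl5, with 0 and 41 UMIs.

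Among the pathway genes with enough UMIs, neutrophil-like nuclei stood apart from macrophage-like nuclei for few. Il18rap was 108-fold higher (861 against 7.99 CPM), Nlrp3 9.995-fold (336 against 33.6 CPM) and Cxcl2 16.2-fold (452 against 28.0 CPM). Of the genes tested, 3 of 6 in the IL-1 family and inflammasome list, 2 of 18 adaptors and kinases, 2 of 12 NF-κB subunits and inhibitors and 1 of 8 induced targets were called higher, where 9.66% of all genes were, so the last 3 counts lie near the background. Among the adaptors and kinases, Ripk1 and Tab2 were called lower, 2 of 18 where 12.8% of all genes were (0.322 and 0.433 of the macrophage-like level).

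At day 1 post-fracture each gene was first measured in the 43464 barcodes with fewer than 200 genes, which together held 6848386 UMIs and stand for free RNA. Il1b had 719 UMIs there (105 CPM), Nfkbiz 448 (65.4 CPM), Tnfrsf1b 401 (58.6 CPM), Il1r1 344 (50.2 CPM), Il1rap 341 (49.8 CPM), Il1r2 338 (49.4 CPM), Il1rn 267 (39.0 CPM), Tnf 237 (34.6 CPM), Tnfrsf1a 143 (20.9 CPM) and Il1a 40 (5.84 CPM). All 10 genes were thus present in this background, and Il1b had the most UMIs, with no correction for length. With the filter of the study's methods (under 0.5% mitochondrial UMIs) 2405 nuclei remained, of which 446 were immune-like, 50 skeletal lineage-like and 571 myogenic-like, and 1338 had no name. The paper kept far fewer nuclei at day 1, after also removing myogenic cells, so these are not its set of nuclei. A wider filter of 5% left 5414 nuclei, with 652 immune-like, 385 skeletal lineage-like and 1277 myogenic-like nuclei and 3086 unnamed, and 288 immune-like nuclei were macrophage-like. Muscle RNA was high throughout, with myogenic markers at 27599 CPM outside the myogenic-like nuclei of the wider filter, and the skeletal lineage-like nuclei had 17 of 22 markers, with Ifitm5, Bglap, Acan, Col2a1 and Fgfr3 at 0. The immune-like nuclei of the wider filter had 2093 CPM of immune markers, against 906 CPM in the other nuclei, and 26376.5 CPM of myogenic markers.

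Immune-like nuclei at day 1 did not rise above free RNA for any of the 10 genes, where 3.12% of all genes were called higher, nor with the wider filter, where 3.2% were. A count of 0 among 10 genes lies near these shares. Il1b had 17 UMIs (109 CPM), a ratio of 1.04 (0.603 to 1.68), and 26 UMIs with the wider filter (99.5 CPM), a ratio of 0.947 (0.615 to 1.40). For Tnf the wider filter gave a ratio of 0.995 (0.449 to 1.92) and for Il1rn 0.393 (0.106 to 1.02). Nfkbiz came nearest to a call, with 32 UMIs (122 CPM) and a ratio of 1.87 (1.26 to 2.68). The count of 0 depended on how the nuclei were clustered and filtered, and under other settings 1 to 3 genes were called, among Nfkbiz, Tnfrsf1b, Tnfrsf1a and Il1r1. The ligand genes Il1a, Il1b and Tnf were called under none of them, so a ligand source could not be read at day 1, although Il1b RNA was present in the droplets. The main clustering named no neutrophil-like nuclei at day 1 under either filter. With the narrower filter, however, 170 of the immune-like nuclei came from a cluster that met the naming rule by the neutrophil list alone. The cluster of the other 276 met it by the endothelial, immune and neutrophil lists. Il1b in either cluster by itself was not measured.

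The receptor Il1r1 was the exception, in skeletal lineage-like nuclei. With the wider filter 96 UMIs in 78 of 385 nuclei gave 510.2 CPM (413 to 623), 10.2-fold the free RNA level (8.01 to 12.8). It was the only 1 of the 10 genes called higher there, where 6.21% of all genes were. With the narrower filter 28 UMIs in 50 nuclei gave 954 CPM, a ratio of 19.0 (12.4 to 27.9), again the only 1 of 10, where 3.79% of all genes were called. As a count, 1 of 10 lies near these shares. No nucleus had more than 4 Il1r1 UMIs, so the level did not rest on a few nuclei. With the wider filter, the ratio of skeletal lineage-like to immune-like nuclei (49.7 CPM) was 10.3 (5.72 to 20.0).

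**Figure D4:**
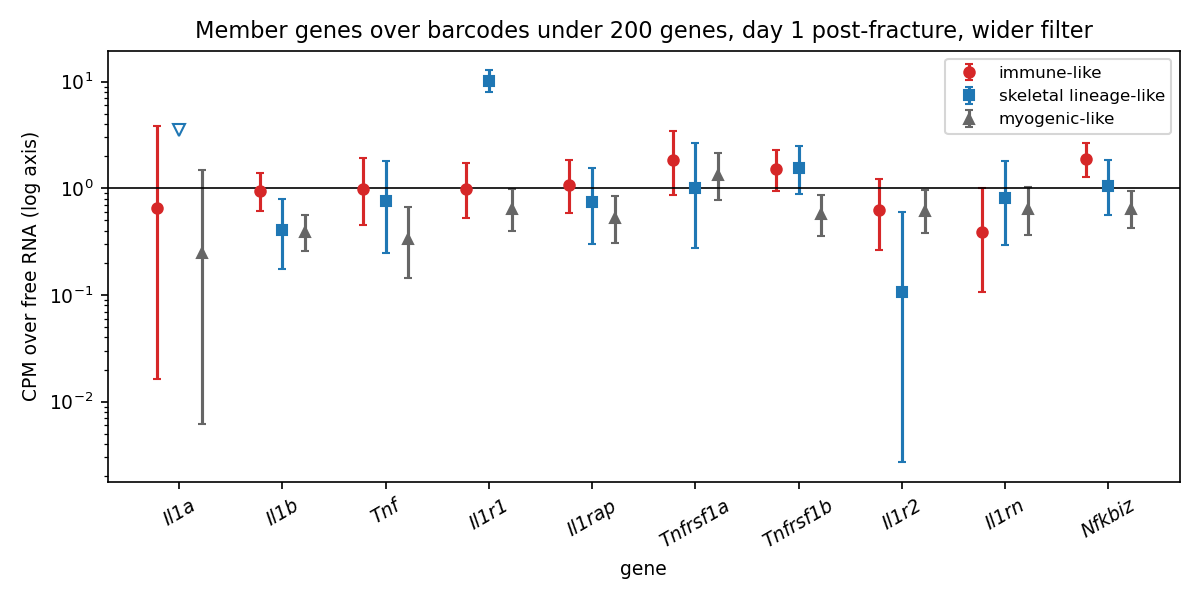
Each point is the CPM in immune-like, skeletal lineage-like or myogenic-like nuclei at day 1 post-fracture (wider filter) divided by the CPM in barcodes with fewer than 200 genes, on a log axis with 95% conditional binomial intervals, and the line marks equality. The open triangle is the upper bound for 0 UMIs. Only Il1r1 in skeletal lineage-like nuclei (10.2) lies clear above the line by 2-fold or more.

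Of the 119 skeletal lineage-like nuclei with at least 500 UMIs, 29.4% (21.4 to 38.5%) had an Il1r1 UMI after thinning to 500, against 1.45% (0.586 to 2.97%) of 482 myogenic-like nuclei. Thinning left out the shallower nuclei of the 385 skeletal lineage-like and 1277 myogenic-like nuclei, and the unthinned skeletal share was 20.3%. Both skeletal lineage clusters had Il1r1, at 429 CPM in the cluster led by Col3a1 and Prg4 (307 nuclei) and 666 CPM in the cluster led by Col5a3 and Tnfaip6 (78 nuclei), a ratio of 1.55 (1.01 to 2.37). Il1b in skeletal lineage-like nuclei was below free RNA, at 0.405 of its level (0.174 to 0.802, 8 UMIs). Il1r2 likewise stood at 0.108 (0.00272 to 0.604), from 1 UMI, and 1.82% of all genes were called lower. With the narrower filter neither was called, with 0 Il1b UMIs (upper bound 1.20) and an Il1r2 ratio of 1.38 (0.167 to 5.03). The partner chain Il1rap was not detectable above free RNA in these nuclei, with 7 UMIs and a ratio of 0.747 (0.298 to 1.56), nor was Nfkbiz, with a ratio of 1.06 (0.558 to 1.82).

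Myogenic-like nuclei rose above free RNA for none of the 10 genes, a count near the 2.86% of all genes that were called higher. In them Il1b stood at 0.388 (0.256 to 0.566) and Tnf at 0.337 (0.144 to 0.674) of the free RNA level. Both were called lower, as 4.80% of all genes were. Of the other pathway genes, skeletal lineage-like nuclei of the wider filter rose above free RNA, as 6.21% of all genes did, for 2 of 9 IL-1 family and inflammasome genes, Il33 (7.49-fold, 4.45 to 12.1) and the IL-33 receptor gene Il1rl1 (4.79-fold, 2.60 to 8.24). They rose for 4 of 16 induced targets, the neutrophil chemokine genes Cxcl1 (6.01-fold, 3.43 to 9.95) and Cxcl5 (5.496-fold, 4.04 to 7.35), Icam1 (2.48-fold) and Sod2 (2.31-fold). They also rose for 3 of 20 adaptors and kinases (Cflar, Irak1 and Traf2) and for Nfkb1 among 13 NF-κB genes, the last near that share. Immune-like nuclei of the wider filter rose, as 3.2% of all genes did, for 1 of 9 IL-1 family and inflammasome genes, Il18 (3.32-fold, 1.46 to 6.67). They rose for 2 of 20 adaptors and kinases (Irak1 and Traf2), 2 of 13 NF-κB genes (Nfkb2 and Nfkbie) and none of the 16 induced targets. Il18, Traf2, Nfkb2 and Nfkbie had only 9 or 10 UMIs each. With the narrower filter only Il18 (4.96-fold, 2.06 to 10.3) and Il33 (3.89-fold, 1.73 to 7.67) were called, where 3.12% of all genes were. Il33 was not called with the wider filter (1.54, 0.553 to 3.47).

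The day 1 populations were not stable. When the nuclei that scrublet marked as doublets (3 of 5523 scored) were left out before clustering, the skeletal lineage-like nuclei of the narrower filter numbered 229 in place of 50 and their Il1r1 ratio was 6.99, still called, while the immune-like nuclei numbered 290 in place of 446. With the wider filter the immune-like nuclei then numbered 449 in place of 652. The same clustering was repeated with another floating-point kernel of the linear algebra library, which changes only the rounding. This run, added after the data were seen, moved the populations about as much with the narrower filter. With the wider filter it moved the immune-like nuclei more. The narrower filter then gave 230 skeletal lineage-like nuclei with an Il1r1 ratio of 6.88, and 254 immune-like nuclei in which Il1r1 was called above free RNA. The wider filter gave 194 immune-like, 922 myogenic-like and 394 skeletal lineage-like nuclei, the last with an Il1r1 ratio of 10.2, and 1078 nuclei came to be named endothelial-like. There 0 nuclei were named macrophage-like, in place of 288. Il1r1 in skeletal lineage-like nuclei was thus called under both filters in each of these runs, whereas the day 1 immune-like and myogenic-like values hold for the nuclei of 1 run. After MTI the other kernel gave 469 immune-like, 82 neutrophil-like, 274 macrophage-like, 176 skeletal lineage-like and 106 myogenic-like nuclei, with the same 6 genes called between immune-like and skeletal lineage-like nuclei and the same 3 between neutrophil-like and macrophage-like nuclei. The name monocyte-like was lost in that run, so the values of the 60 monocyte-like nuclei belong to a cluster whose name was not stable.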

How the data were processed

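The data were single-nucleus RNAseq counts of 2 libraries. The authors counted reads with Cell Ranger (7.0.1 per the file headers) and deposited unnormalized UMI counts for each gene in each barcode, with intronic and exonic reads. The submitters' processing notes name mm10 as the genome build, while the label's protocol names a human reference. All 32285 gene identifiers are mouse identifiers. Gene positions and lengths came from GENCODE M21 of the same build, the release the authors used being not given in the sources used here.

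From the deposited counts, each library was filtered (200 to 5000 genes, mitochondrial under 5% after MTI and 0.5% or, as the wider filter, 5% at day 1, ribosomal under 2% after MTI and 2.5% at day 1) and clustered on its own with Seurat 5.3.0 in R 4.3.3, with 2000 variable genes from which 72 measured genes were left out, using the components and resolutions of the study's methods (30 and 1 after MTI, 20 and 1.7 at day 1). Mitochondrial and ribosomal content was regressed out, and cell cycle too at day 1. A cluster needed 3 or more markers for a name, each with 3 or more UMIs and 1.5 times the level in other nuclei. The summed list had to reach 1.5 times too, all with lower interval bounds above 1, and a marker had to be among the 100 leading genes. Clusters that met this could still stay unnamed, for example when leading genes belonged to another class, markers of several populations were high or predicted genes led. These thresholds were set after a first clustering had been seen. The 10 genes, the markers and the pathway lists were chosen with earlier results of these data known. All 10 genes are described, up to 6 called genes of each pathway list were named by UMI number, and like patterns used genes with at least 100 UMIs. Scrublet in scanpy 1.11.5 marked 3 of 5523 nuclei at day 1 and 2 of 1398 after MTI, so doublets were in effect kept.

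UMIs were summed by population with numpy 2.4.6, scipy 1.17.1 and pandas 2.3.3, and no p-value was computed because each condition was 1 library and nuclei are not replicates. PCR and capture are not covered by the intervals. Naming and calls were also run on simulated data. The simulated nuclei were drawn from pooled profiles of populations already named, and the simulated calls used Poisson counts. Spread between nuclei of a population was not simulated, so these runs cannot show that names or calls hold in the real data. The alternatives were another fold, minimum gene number, mitochondrial limit, clustering and regression setting, doublet removal, cell definition by own marker UMIs, a free RNA limit of 100 genes and mean CPM per nucleus, with removal of the nucleus richest in the gene, removal of neutrophil-like nuclei and another floating-point kernel added after seeing the data. Clustering ran on 1 thread with a fixed kernel of OpenBLAS. Other time points were not analysed here, and 1 unnamed cluster after MTI is not reported here.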

Additional observations from a re-analysis of the deposited data

Results flagged for a closer look

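Transcripts of these genes also lay in barcodes that the filters removed and that no comparison used, above the level that a count of 0 allows. At day 5 post-MTI, 319 barcodes with 1562070 UMIs were removed for their gene number or their mitochondrial or ribosomal share. They held 257 Il1r1 UMIs, 160 of Nfkbiz, 117 of Il1b, 74 of Tnfrsf1b, 60 of Il1rap, 56 each of Il1r2 and Tnfrsf1a, 12 of Tnf and 7 of Il1rn. Il1r1 was thus the most counted of the 10 genes in them, at 165 CPM, and Il1b stood at 74.9 CPM. At day 1 post-fracture, the 109 barcodes with at least 200 genes that the wider filter removed held 50699 UMIs, with 6 UMIs of Il1r1 and 6 of Tnfrsf1b.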

How the results depend on the processing

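No paired analysis was possible because each condition was 1 library and no result came from a test across samples. After MTI, 4 to 6 genes were called higher and Il1r1 alone lower in immune-like than in skeletal lineage-like nuclei under all 13 alternatives. The Il1b ratio of that comparison ranged from 2.15 with the mitochondrial limit of 0.5%, under which no cluster was named neutrophil-like, to 27.4 with nuclei assigned by their own marker UMIs. Neutrophil-like nuclei were above macrophage-like nuclei for 3 to 5 genes, the 5 being reached at a fold of 1.5, with Tnfrsf1b and Nfkbiz added. Their Il1b ratio stayed between 106 and 159 under 10 alternatives, and the thinned Il1b share was 50% with 1000 UMIs in place of 500.

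At day 1, Il1r1 remained the only gene called in skeletal lineage-like nuclei under all 11 alternatives with the narrower and 12 with the wider filter, at ratios of 6.88 to 20.2 and 9.44 to 15.1. Immune-like nuclei changed. With the narrower filter 1 gene was called with own marker UMIs (Nfkbiz, 23 nuclei), after scrublet removal (Il1r1) and with the other floating-point kernel (Il1r1). With the wider filter 2 were called when clustering used the measured genes too (Tnfrsf1b and Nfkbiz), 3 with nothing regressed out (Tnfrsf1a too), and 1, Nfkbiz, with own marker UMIs, after scrublet removal and at a fold of 1.5. The cause was not tested. No ratio listed here reversed. Neutrophil-like nuclei could not be compared with own marker UMIs or the limit of 0.5%, nor day 1 immune-like and skeletal lineage-like nuclei of the narrower filter with at least 500 genes, since too few nuclei were left. Depth limits Il1a, Il1rn and Tnf, and all day 1 values under a few UMIs.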
